A study of Homo sapiens with 12 samples.

Results

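The genes described here encode the path of glucose through glycolysis, its storage as glycogen and the fate of pyruvate, from the glucose carriers SLC2A1 and SLC2A3 to lactate dehydrogenase, the gatekeepers of pyruvate dehydrogenase and the glycogen enzymes. They were listed as 33 symbols by their place in the pathway, and 31 of the 33 were measured, out of 19775 genes on the arrays. The other two, the monocarboxylate transporters SLC16A1 and SLC16A3, are not analysed here, because no probe set named for either was among those used. Transcript levels came from 12 Affymetrix arrays of total RNA from cultures of FG and L3.6pl, established human pancreatic carcinoma lines. Per the series title the lines differ in metastatic potential, and L3.6pl is known as a line derived from FG by selection for liver metastasis in mice. The 4 groups, of 3 arrays each, were L3.6pl in hypoxia, L3.6pl in normoxia, FG in hypoxia and FG in normoxia. All cultures were grown from frozen stock in serum-containing DMEM to near confluence. Hypoxic cultures were kept at 1% oxygen, with nitrogen in place of air, for their last 24 h, and normoxic cultures were left untreated. No label says whether the 3 replicates of a group were separate cultures, so p-values measure the spread between these arrays, part of which may be technical.

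Glycolysis splits 1 glucose into pyruvate and yields ATP without oxygen. Pyruvate then either becomes lactate through lactate dehydrogenase, which returns the NAD+ that glycolysis needs, or enters mitochondria and is oxidised by the pyruvate dehydrogenase complex, which the PDK kinases switch off and the PDP phosphatases switch on. Many genes of the pathway are known targets of the hypoxia-inducible factors (HIFs), which bind DNA at a core of ACGTG or GCGTG, and glycogen is known to build up in several cell types in low oxygen.

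Values are log2 of the normalized intensity of 1 probe set per gene, and a change is a difference of group means on that log2 scale ± its standard error. A gene was called when limma's Benjamini-Hochberg adjusted p over all 19775 genes was below 0.05. In hypoxia, 16 of 31 members (51.6%) were called higher and 0 lower in L3.6pl, and 14 (45.2%) were called higher and 0 lower in FG. Without 3 arrays that stand apart 18 were called higher and 2 lower in L3.6pl and 13 higher and 2 lower in FG, the lower ones being PDHA1 and PDP1 in both lines. Of all genes, 6.86% were called in L3.6pl (3.89% higher, 2.97% lower) and 10.7% in FG (4.24% higher, 6.47% lower). The members' median change was 0.63 in L3.6pl and 0.48 in FG, beside -0.022 and -0.026 over all genes. The genes called in both lines were 12, namely SLC2A1, SLC2A3, HK2, GPI, PFKP, ALDOA, ALDOC, ENO2, PDK1, PGM1, GBE1 and PYGL. HK1, PFKL, PGM2 and GYS1 passed in L3.6pl and not in FG, PGK1 and LDHA passed in FG and not in L3.6pl, and 13 members passed in neither. Hypoxic and normoxic arrays did not overlap for 26 of 31 members in L3.6pl and 21 of 31 in FG, beside 24.4% and 27.9% of all genes. RNA was taken from whole cultures, so a change in every cell and a change in the share of cells with more of the transcript cannot be told apart.

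**Figure D1:**
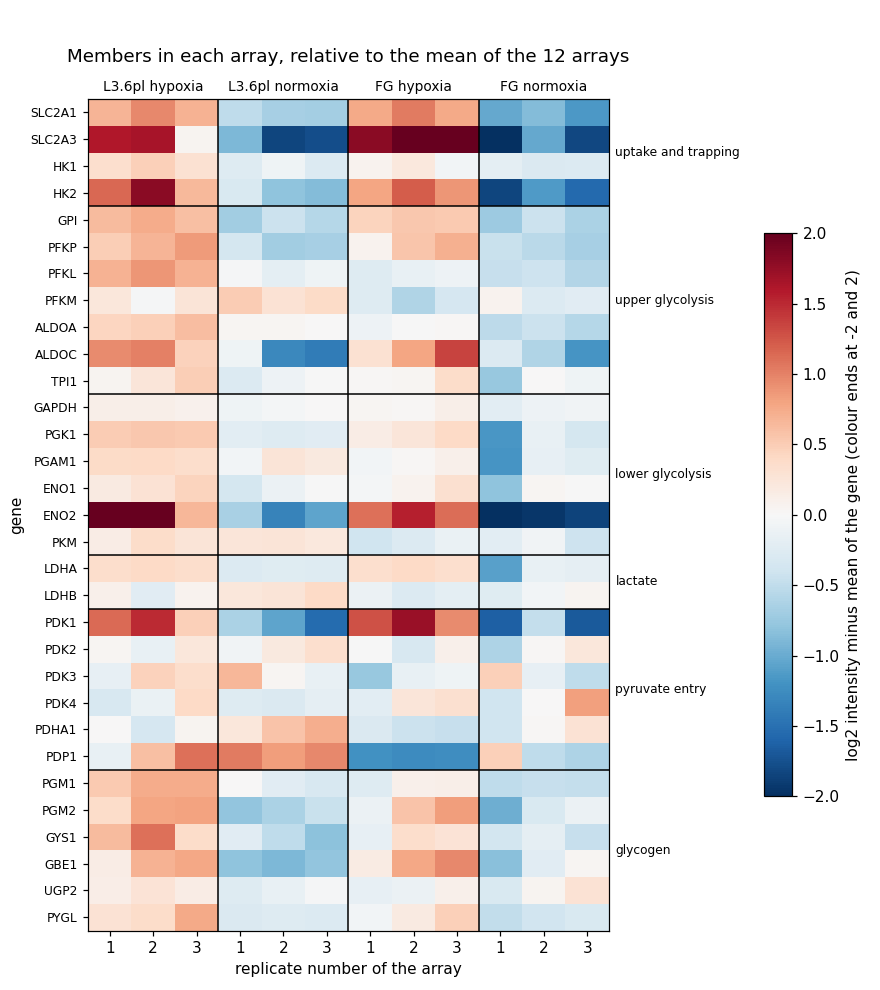
Log2 intensity of each of the 31 members (rows, by step) on each of the 12 arrays (columns, by group and replicate number) minus that member's mean over all arrays, as colour that ends at -2 and 2. SLC2A1, SLC2A3, HK2, GPI, ALDOC, ENO2 and PDK1 were above their means on every hypoxic array, and FG normoxia replicate 1 was low for TPI1, PGK1, PGAM1, ENO1 and LDHA.

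The arrays that stood apart from the others of their groups were 3. FG normoxia replicate 1 had the lowest mean correlation with the other arrays of its group (Pearson's r across genes of 0.978), a mean log2 intensity over 6 proliferation genes of 8.42, against 10.67 and 10.62 on the other 2, and an ACTB signal 1.14 higher at the 3' than at the 5' control probes, against 0.49 and 0.67. L3.6pl hypoxia replicate 3 had the widest such ACTB difference, 1.34, against 0.56 and 0.48 in its group. L3.6pl normoxia replicate 1 had 0.87, against 0.52 and 0.71, and a proliferation mean of 9.88, against 10.85 and 10.63. It stood apart least: its mean correlation with its group, 0.989, was above that of FG normoxia replicate 3 (0.984), which was kept. The keratins KRT8, KRT18 and KRT19, EPCAM and CDH1 lay at the 93.5th percentile of mean intensity over genes or above. Of the stromal and blood markers, LUM, CD14, PTPRC and VWF lay at the 25.0th or below and DCN and COL1A2 at the 33.3rd and 38.4th, but HBB, ACTA2 and PECAM1 lay at the 53.5th, 55.2nd and 64.3rd, and COL3A1 (log2 5.46 to 11.85) and COL1A1 (8.40 to 11.41) at the 75.9th and 90.6th. The mean over 11 stromal and blood markers was 5.88 to 6.06 in L3.6pl hypoxia, 5.66 to 5.72 in L3.6pl normoxia, 6.23 to 6.26 in FG hypoxia and 5.98 to 6.12 in FG normoxia, so it was also higher in hypoxia in both lines. The mean over 6 acinar and endocrine markers was 4.69 to 4.82 in L3.6pl hypoxia, 4.11 to 4.30 in L3.6pl normoxia, 4.09 to 4.14 in FG hypoxia and 3.98 to 4.08 in FG normoxia. Of these markers CEL had by far the widest range over the arrays, 5.07 to 9.89. INS ranged from 3.49 to 4.12, and CPA1, CELA3A, GCG and SST varied less still. The part of these array and marker differences in the members' changes was not tested.

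Glucose uptake and the first phosphorylation, which traps glucose in the cell, had the largest median change of the 6 steps, 1.63 in L3.6pl and 2.17 in FG: all 4 genes of this step were called higher in L3.6pl and 3 of 4 in FG. SLC2A1 encodes GLUT1, the carrier for basal glucose uptake. Its log2 intensity was 12.24, 12.51 and 12.24 in L3.6pl hypoxia, against 11.05, 10.89 and 10.87 in L3.6pl normoxia. In FG it was 12.31, 12.60 and 12.31 in hypoxia, against 10.52, 10.69 and 10.41 in normoxia. Every hypoxic array of either line lay above every normoxic one, and the change was 1.39 ± 0.12 in L3.6pl (adjusted p = 0.000223) and 1.87 ± 0.12 in FG (adjusted p = 2.7e-05), or 2.63-fold and 3.64-fold. SLC2A3 encodes GLUT3, a carrier of high affinity best known in neurons. Its values were 10.79, 10.84 and 9.24 in L3.6pl hypoxia and 8.29, 7.36 and 7.42 in L3.6pl normoxia. They were 10.99, 11.49 and 11.52 in FG hypoxia and 6.82, 8.17 and 7.37 in FG normoxia. The groups did not overlap in either line, but the third hypoxic L3.6pl array, 1 of the 3 that stand apart, lay well under the other 2. SLC2A3 rose 6.06-fold in L3.6pl (2.60 ± 0.46, adjusted p = 0.0079) and 14.7-fold in FG (3.88 ± 0.46, adjusted p = 0.000657). All 3 probe sets that name it alone were called higher in both lines. Another 2 name it together with other genes and were not used, and signal from related transcripts was not tested. Without the 3 arrays the SLC2A3 change was 3.42 in L3.6pl and 3.56 in FG.

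Of the hexokinases, HK2 is the inducible isoform found in many tumours, and HK1 the isoform found in most tissues. HK2 stood at 10.66, 11.33 and 10.17 in L3.6pl hypoxia, against 9.22, 8.71 and 8.65 in L3.6pl normoxia. In FG it stood at 10.31, 10.74 and 10.41 in hypoxia, against 7.68, 8.39 and 7.97 in normoxia. All hypoxic arrays were above all normoxic ones, and HK2 rose by 1.86 ± 0.28 in L3.6pl (3.64-fold, adjusted p = 0.00371) and by 2.47 ± 0.28 in FG (5.55-fold, adjusted p = 0.000587). The other two HK2 probe sets, of mean log2 intensity 4.99 and 4.07, went the other way: the brighter of them was at -0.75 in L3.6pl (adjusted p = 0.0322) and -0.64 in FG (adjusted p = 0.0402). HK1 averaged 10.73 ± 0.095 in L3.6pl hypoxia and 10.16 ± 0.11 in L3.6pl normoxia (SD, n = 3 each), a rise of 0.58 ± 0.098 (adjusted p = 0.00684). In FG its change of 0.33 ± 0.098 did not pass (adjusted p = 0.0568), and it passed without FG hypoxia replicate 3 or L3.6pl hypoxia replicate 3 (adjusted p = 0.0447 and 0.0483).

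The upper part of glycolysis, from glucose 6-phosphate to the triose phosphates, had 5 of 7 genes called higher in L3.6pl and 4 of 7 in FG. GPI, the isomerase that makes fructose 6-phosphate, had the smallest adjusted p of this step. It stood at 12.53, 12.65 and 12.51 in L3.6pl hypoxia, against 11.21, 11.47 and 11.34 in L3.6pl normoxia. In FG it stood at 12.35, 12.44 and 12.43 in hypoxia, against 11.18, 11.47 and 11.28 in normoxia. Arrays of a group lay close together and the oxygen conditions did not overlap, and GPI rose 2.34-fold in L3.6pl (1.22 ± 0.10, adjusted p = 0.000197) and 2.14-fold in FG (1.10 ± 0.10, adjusted p = 0.000207).

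Phosphofructokinase catalyses the committed step of glycolysis and has 3 isoforms, named for platelets (PFKP), liver (PFKL) and muscle (PFKM). PFKP rose by 1.25 ± 0.17 in L3.6pl (adjusted p = 0.00193) and 0.99 ± 0.17 in FG (adjusted p = 0.00421). It averaged 11.54 ± 0.18 in L3.6pl hypoxia, 10.29 ± 0.19 in L3.6pl normoxia, 11.31 ± 0.33 in FG hypoxia and 10.32 ± 0.11 in FG normoxia (SD, n = 3 each). The other PFKP probe set was at -0.11 in L3.6pl and 0.17 in FG and was called in neither line. PFKL stood at 9.00, 9.19 and 9.01 in L3.6pl hypoxia, against 8.28, 8.11 and 8.23 in L3.6pl normoxia. In FG its values were 8.04, 8.15 and 8.21 in hypoxia, against 7.84, 7.89 and 7.72 in normoxia. It rose by 0.86 ± 0.094 in L3.6pl (adjusted p = 0.000816), and its change of 0.32 ± 0.094 in FG missed the threshold (adjusted p = 0.0528) although the arrays did not overlap. Without L3.6pl hypoxia replicate 3 the FG change was called (adjusted p = 0.0459). Tested singly, the 2 PFKL probe sets were at 0.32 and 0.38 in FG, and 1 of them was called higher there. PFKM went the other way without passing: its change was -0.24 ± 0.13 in L3.6pl (adjusted p = 0.337) and -0.25 ± 0.13 in FG (adjusted p = 0.295).

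Aldolase splits fructose 1,6-bisphosphate. ALDOA, the isoform of muscle and most cells, rose by 0.48 ± 0.085 in both L3.6pl (adjusted p = 0.00807) and FG (adjusted p = 0.00577), and all 3 of its probe sets were called higher in both lines. ALDOC, the isoform of brain, rose more. It averaged 11.26 ± 0.30 in L3.6pl hypoxia and 9.54 ± 0.73 in L3.6pl normoxia (SD, n = 3 each; change 1.73 ± 0.38, 3.31-fold, adjusted p = 0.0211). In FG it averaged 11.28 ± 0.52 in hypoxia and 9.78 ± 0.46 in normoxia (change 1.50 ± 0.38, 2.83-fold, adjusted p = 0.0287). Its change was 2.32 in L3.6pl and 1.71 in FG without the 3 arrays that stand apart. With each array left out in turn its change was 1.49 to 2.15 in L3.6pl and 1.23 to 1.76 in FG, but its calls were not kept throughout. The L3.6pl call was lost without L3.6pl hypoxia replicate 1 or 2 or L3.6pl normoxia replicate 2 or 3 (adjusted p = 0.0705 to 0.0999), and the FG call without FG hypoxia replicate 2 or 3 or FG normoxia replicate 2 or 3 (adjusted p = 0.0727 to 0.0959). TPI1, which interconverts the triose phosphates, was not called at 0.39 ± 0.20 in L3.6pl and 0.42 ± 0.20 in FG.

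**Figure D2:**
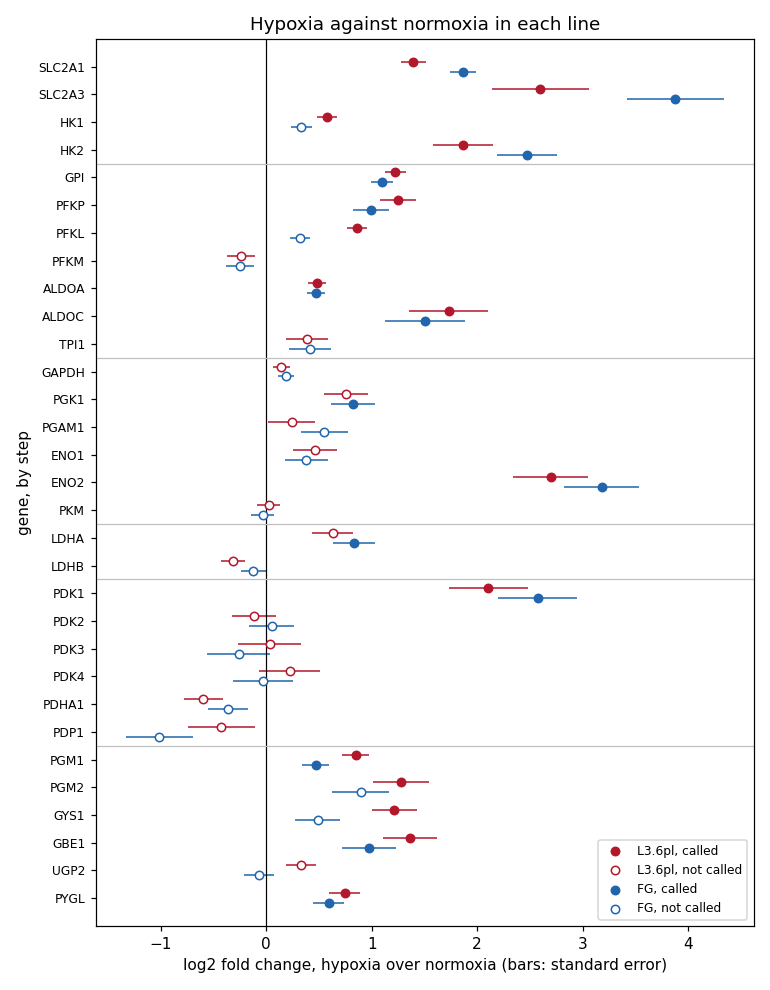
Log2 fold change of each of the 31 members in hypoxia over normoxia (horizontal axis; bars are standard errors of the limma fit) in L3.6pl (red) and FG (blue), with filled points where the adjusted p was below 0.05. The called members all lie to the right of 0, and SLC2A3, ENO2, PDK1 and HK2 lie farthest right in both lines.

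In lower glycolysis, which makes ATP, 1 of 6 genes was called higher in L3.6pl and 2 of 6 in FG. ENO2, the enolase of neurons, was the only gene of this step called in both lines, whereas ENO1, the enolase of most cells, was called in neither. ENO2 stood at 10.83, 11.06 and 9.42 in L3.6pl hypoxia, against 8.11, 7.41 and 7.69 in L3.6pl normoxia. Its FG values were 9.85, 10.31 and 9.86 in hypoxia, against 6.76, 6.81 and 6.90 in normoxia. As for SLC2A3, the third hypoxic L3.6pl array was low for its group, yet it was above all normoxic arrays. ENO2 rose 6.48-fold in L3.6pl (2.70 ± 0.36, adjusted p = 0.00186) and 9.07-fold in FG (3.18 ± 0.36, adjusted p = 0.000545). Its change was 3.39 in L3.6pl and 3.15 in FG without the 3 arrays that stand apart. ENO1 was at 0.46 ± 0.21 in L3.6pl (adjusted p = 0.231) and 0.38 ± 0.21 in FG (adjusted p = 0.311). All 4 ENO1 probe sets were positive in both lines, and 1 of them, of mean log2 intensity 7.69, was at 4.32 in FG (adjusted p = 0.00726) and 2.61 in L3.6pl (adjusted p = 0.0873).

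GAPDH, PGAM1, TPI1, ENO1, PGK1 and LDHA had log2 intensities of 11.47 or more on all arrays, and several of them have processed pseudogenes whose transcripts could reach the same probes. PGK1, the first enzyme of the pathway to make ATP, stood at 13.61, 13.65 and 13.64 in L3.6pl hypoxia, against 12.90, 12.85 and 12.89 in L3.6pl normoxia. The FG values were 13.26, 13.36 and 13.51 in hypoxia, against 11.95, 12.96 and 12.76 in normoxia. The L3.6pl arrays nearly coincided within each condition and did not overlap between conditions, and the change of 0.76 ± 0.21 nonetheless missed the threshold (adjusted p = 0.0536). The fit shares 1 estimate of the spread over the 4 groups, and FG normoxia replicate 1 was low for this gene. Without that array PGK1 was called in L3.6pl at the same 0.76 (adjusted p = 0.00145), as it was without FG normoxia replicate 2 (adjusted p = 0.0352). In FG the change was 0.82 ± 0.21 (adjusted p = 0.0281), and 0.52 without FG normoxia replicate 1 (adjusted p = 0.0137). It was not called in FG without any 1 of the 3 FG hypoxia arrays (adjusted p = 0.0567 to 0.0879). All 6 PGK1 probe sets were positive in both lines, 3 of them called in L3.6pl and 4 in FG, with changes of 0.76 to 1.74 in L3.6pl and 0.82 to 2.32 in FG. The brightest, which stands for the gene here, had the smallest change in both lines.

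GAPDH, which reduces NAD+, had log2 intensities near the top of the arrays' range, whose highest value was 14.46. It stood at 14.29, 14.29 and 14.25 in L3.6pl hypoxia, against 14.08, 14.13 and 14.18 in L3.6pl normoxia, and at 14.20, 14.19 and 14.28 in FG hypoxia, against 13.95, 14.06 and 14.10 in FG normoxia. The arrays did not overlap, but the changes of 0.14 ± 0.077 and 0.19 ± 0.077 were not called (adjusted p = 0.332 in L3.6pl, 0.173 in FG). PGAM1, a phosphoglycerate mutase, was at 0.24 ± 0.22 in L3.6pl and 0.55 ± 0.22 in FG and was not called. PKM, which encodes the pyruvate kinase of most cells and tumours, gave 12.81, 13.03 and 12.91 in L3.6pl hypoxia, against 12.90, 12.91 and 12.86 in L3.6pl normoxia. Its FG values were 12.26, 12.38 and 12.53 in hypoxia, against 12.45, 12.58 and 12.24 in normoxia. The groups overlapped in both lines, with changes of 0.02 ± 0.11 (95% interval -0.22 to 0.26) and -0.04 ± 0.11 (-0.28 to 0.21). The other PKM probe set, of mean log2 intensity 9.16, was at 0.79 in L3.6pl (adjusted p = 0.381) and 1.62 in FG (adjusted p = 0.0421). Arrays of this kind do not separate the PKM splice forms.

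**Figure D3:**
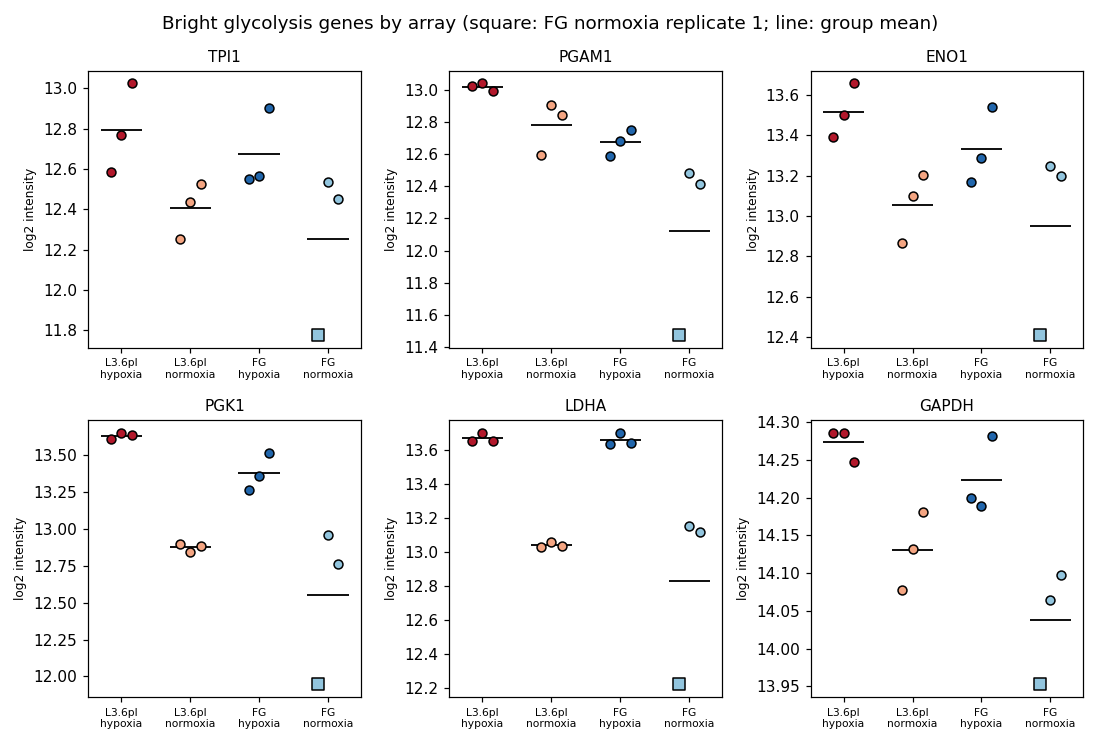
Log2 intensity (vertical axis, own scale per panel) of TPI1, PGAM1, ENO1, PGK1, LDHA and GAPDH on each array by group, with lines at the group means and a square for FG normoxia replicate 1. That array lies lowest in every panel, and the other arrays of PGK1 and LDHA separate by oxygen in both lines.

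Promoter sequences of RefSeq (GRCh38.p14) were searched for ACGTG on both strands in 250 bases before to 50 after each gene's start. The 4 printed here run 5' to 3' on the gene's strand, with ACGTG or its reverse complement in capitals. They are ENO2, the member with the largest change in L3.6pl, PGK1 and LDHA, whose calls differ between the lines, and PKM. The changes of PKM were close to 0 for the probe set that stands for it, but its other probe set was called higher in FG, at 1.62. ENO2 (chr12:6914330-6914629, plus strand) holds 1 match, PGK1 (chrX:78103998-78104297, plus strand) 3, LDHA (chr11:18394313-18394612, plus strand, the start of its 2 with more matches) 5 and PKM (chr15:72231141-72231440, minus strand) 0. CACGTG reads ACGTG on both strands and so counts as 2 matches. The other core, GCGTG, is not in capitals: ENO2 holds 0 of it and PGK1, LDHA and PKM 1 each.
ENO2: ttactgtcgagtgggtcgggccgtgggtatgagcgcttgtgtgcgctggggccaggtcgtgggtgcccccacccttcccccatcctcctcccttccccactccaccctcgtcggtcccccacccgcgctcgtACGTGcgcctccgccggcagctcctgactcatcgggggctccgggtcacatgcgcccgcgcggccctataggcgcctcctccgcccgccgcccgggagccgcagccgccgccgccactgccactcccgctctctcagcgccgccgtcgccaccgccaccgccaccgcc
PGK1: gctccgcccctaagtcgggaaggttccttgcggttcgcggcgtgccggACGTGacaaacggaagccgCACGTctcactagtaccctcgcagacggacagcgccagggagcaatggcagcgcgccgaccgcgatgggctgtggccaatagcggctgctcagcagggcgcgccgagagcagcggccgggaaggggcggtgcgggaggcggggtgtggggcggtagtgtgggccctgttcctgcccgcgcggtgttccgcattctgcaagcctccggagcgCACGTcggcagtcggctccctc
LDHA: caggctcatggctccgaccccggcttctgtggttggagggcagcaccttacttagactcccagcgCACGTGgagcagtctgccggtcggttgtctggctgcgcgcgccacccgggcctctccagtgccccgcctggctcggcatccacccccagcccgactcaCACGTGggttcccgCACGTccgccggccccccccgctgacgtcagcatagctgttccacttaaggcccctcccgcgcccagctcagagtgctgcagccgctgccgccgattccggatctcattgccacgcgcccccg
PKM: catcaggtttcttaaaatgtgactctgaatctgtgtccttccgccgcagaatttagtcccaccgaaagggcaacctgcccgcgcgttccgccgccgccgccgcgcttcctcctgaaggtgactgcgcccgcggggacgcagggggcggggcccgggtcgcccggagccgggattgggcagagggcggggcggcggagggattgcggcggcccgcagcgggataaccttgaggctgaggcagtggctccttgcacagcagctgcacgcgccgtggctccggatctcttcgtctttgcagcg
The table held promoters for 29 members. At least 1 promoter with ACGTG was found for 18 of them (62.1%), against 24.9% of all 27305 genes in the table. Counted by promoter, the motif was in 22 of 55 member promoters (40.0%) and in 21.4% of all 35116. It was found for 12 of 17 members called in either line and for 6 of 12 called in neither. GAPDH, not called in either line, holds 2 ACGTG matches, while SLC2A1 and PYGL, called in both, hold 0 in this window. Of GCGTG, SLC2A1 holds 1 there and PYGL 0. With GCGTG counted as well, 34 of the 55 member promoters (61.8%) and 48.4% of all promoters hold a match. These letters describe the windows and are not measured binding sites.

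Lactate dehydrogenase turns pyruvate into lactate and back, with LDHA as the subunit that prevails in muscle and tumours and LDHB as that of heart. LDHA stood at 13.66, 13.70 and 13.65 in L3.6pl hypoxia, against 13.03, 13.06 and 13.04 in L3.6pl normoxia. In FG it stood at 13.64, 13.70 and 13.64 in hypoxia, against 12.22, 13.16 and 13.12 in normoxia. In each line all hypoxic arrays were above all normoxic ones, and the hypoxic arrays of the lines nearly coincided. The change in L3.6pl was 0.63 ± 0.20 and not called (adjusted p = 0.0903), but was called at the same size without FG normoxia replicate 1 (adjusted p = 0.00119). In FG the change was 0.83 ± 0.20 (1.78-fold, adjusted p = 0.0236), and 0.52 without that array (adjusted p = 0.005). The FG call was lost without any 1 of the 3 FG hypoxia arrays (adjusted p = 0.0549 to 0.0856). LDHB was at -0.31 ± 0.12 in L3.6pl (adjusted p = 0.139) and -0.12 ± 0.12 in FG (adjusted p = 0.612).

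Of the genes that govern pyruvate's entry into the citric acid cycle, PDK1 was called in both lines and no other was with all 12 arrays. Without the 3 arrays that stand apart PDHA1 and PDP1 were called lower in both lines. PDK1 encodes a kinase that inactivates pyruvate dehydrogenase. It stood at 10.72, 11.08 and 10.07 in L3.6pl hypoxia, against 8.96, 8.54 and 8.05 in L3.6pl normoxia. Its FG values were 10.87, 11.31 and 10.54 in hypoxia, against 7.95, 9.12 and 7.92 in normoxia. The lowest hypoxic array was above the highest normoxic one in both lines, and PDK1 rose 4.31-fold in L3.6pl (2.11 ± 0.37, adjusted p = 0.00806) and 5.96-fold in FG (2.57 ± 0.37, adjusted p = 0.00204). Its sister kinases were not called: PDK2 was at -0.12 ± 0.21 in L3.6pl and 0.05 ± 0.21 in FG, PDK3 at 0.03 ± 0.30 and -0.26 ± 0.30, and PDK4 at 0.22 ± 0.29 and -0.03 ± 0.29. PDK4 was dim, with log2 intensities of 4.38 to 5.61, under the median of 6.25 over genes and arrays.

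PDHA1, the subunit of pyruvate dehydrogenase that the kinases phosphorylate, stood at 10.54, 10.19 and 10.57 in L3.6pl hypoxia, against 10.75, 11.09 and 11.25 in L3.6pl normoxia. In FG it stood at 10.24, 10.10 and 10.06 in hypoxia, against 10.12, 10.55 and 10.81 in normoxia. The groups did not overlap in L3.6pl and overlapped in FG. The changes of -0.60 ± 0.19 in L3.6pl (adjusted p = 0.0846) and -0.36 ± 0.19 in FG (adjusted p = 0.279) did not pass, and that in L3.6pl passed without FG normoxia replicate 1 (adjusted p = 0.0362). They were -0.81 (adjusted p = 0.00543) and -0.55 (adjusted p = 0.0213) without the 3 arrays. Another PDHA1 probe set, of mean log2 intensity 6.94, was lower in both lines, at -1.27 in L3.6pl (adjusted p = 0.0184) and -1.18 in FG (adjusted p = 0.0163). PDP1, a phosphatase that reactivates the complex, had 8.69, 8.64 and 8.66 in FG hypoxia, against 10.37, 9.39 and 9.28 in FG normoxia, of which 10.37 is the array that stands apart. Its change in FG, -1.02 ± 0.32, did not pass (adjusted p = 0.0677), was called without L3.6pl hypoxia replicate 1 or 3 (adjusted p = 0.0329 and 0.0333), and was -0.67 without FG normoxia replicate 1 (adjusted p = 0.16). In L3.6pl it was at -0.43 ± 0.32 (adjusted p = 0.513). Without the 3 arrays PDP1 was at -0.67 in both L3.6pl (adjusted p = 0.0472) and FG (adjusted p = 0.0349). With no array left out, the other PDP1 probe set changed less, by -0.18 in L3.6pl and -0.38 in FG. It was called in neither line.

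Of the glycogen genes 5 of 6 were called higher in L3.6pl and 3 of 6 in FG, with a median change of 1.03 in L3.6pl and 0.54 in FG. PGM1, which joins glucose 6-phosphate and glucose 1-phosphate, stood at 11.17, 11.40 and 11.39 in L3.6pl hypoxia, against 10.66, 10.43 and 10.33 in L3.6pl normoxia. In FG it was 10.39, 10.74 and 10.77 in hypoxia, against 10.14, 10.19 and 10.18 in normoxia. It rose by 0.85 ± 0.13 in L3.6pl (adjusted p = 0.00323) and 0.47 ± 0.13 in FG (adjusted p = 0.0377), with no overlap of arrays. PYGL, the liver form of glycogen phosphorylase, which breaks glycogen down, stood at 9.73, 9.80 and 10.20 in L3.6pl hypoxia, against 9.16, 9.18 and 9.17 in L3.6pl normoxia. Its FG values were 9.38, 9.62 and 9.91 in hypoxia, against 8.95, 9.06 and 9.13 in normoxia. The rise was 0.74 ± 0.15 in L3.6pl (adjusted p = 0.0145) and 0.59 ± 0.15 in FG (adjusted p = 0.0294).

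GBE1, the branching enzyme, rose 2.57-fold in L3.6pl (1.36 ± 0.26, adjusted p = 0.011) and 1.97-fold in FG (0.97 ± 0.26, adjusted p = 0.0354). GYS1, the glycogen synthase of muscle and most cells, stood at 9.14, 9.60 and 8.87 in L3.6pl hypoxia, against 8.29, 7.99 and 7.69 in L3.6pl normoxia. Its FG values were 8.33, 8.86 and 8.78 in hypoxia, against 8.13, 8.33 and 8.05 in normoxia. GYS1 rose 2.32-fold in L3.6pl (1.21 ± 0.21, adjusted p = 0.00786), whereas its change in FG, 0.49 ± 0.21, did not pass (adjusted p = 0.193). PGM2, a relative of PGM1 that acts mainly on pentose phosphates, rose by 1.28 ± 0.27 in L3.6pl (adjusted p = 0.0169) and was at 0.89 ± 0.27 in FG (adjusted p = 0.0585). UGP2, which makes the UDP-glucose that glycogen synthase uses, was at 0.33 ± 0.14 in L3.6pl (adjusted p = 0.222) and -0.07 ± 0.14 in FG (adjusted p = 0.847). The other UGP2 probe set, of mean log2 intensity 6.36, was at 1.01 in L3.6pl (adjusted p = 0.131) and 1.49 in FG (adjusted p = 0.0224).

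Glycogen calls in FG were near the threshold, and each was lost when any 1 of several arrays was left out. The FG changes stayed positive with each array left out in turn, at 0.40 to 0.59 for PGM1, 0.72 to 1.21 for GBE1 and 0.45 to 0.72 for PYGL. The FG call of PGM1 was lost without FG hypoxia replicate 2 or 3, any FG normoxia array or L3.6pl normoxia replicate 2 (adjusted p = 0.0596 to 0.142). That of GBE1 was lost without FG hypoxia replicate 2 or 3, FG normoxia replicate 1 or 2, or L3.6pl normoxia replicate 2 or 3 (0.0543 to 0.129), and also without the 3 arrays that stand apart (0.72, adjusted p = 0.0644), and that of PYGL without FG hypoxia replicate 2 or 3 or any FG normoxia array (0.0544 to 0.0892). PGM2 passed in FG without FG hypoxia replicate 1 (0.0225). In L3.6pl, PGM2 was lost without L3.6pl hypoxia replicate 2 or L3.6pl normoxia replicate 1 or 2 (0.058 to 0.0761), GBE1 without L3.6pl hypoxia replicate 2 or L3.6pl normoxia replicate 2 (0.0535 and 0.0537), and PYGL without L3.6pl normoxia replicate 2 or 3 (0.051 and 0.0594).

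Isoforms of one enzyme, and some other pairs, were also set against each other within each array. The difference between the paired genes was taken on each array, so that a shift of the same size in both genes cancels. An effect of an array that differs between the probe sets of a pair does not cancel. The size of the difference itself depends on the probes, and only its change with oxygen is read. HK2 gained 1.29 on HK1 in L3.6pl and 2.14 in FG, ENO2 gained 2.24 and 2.80 on ENO1, PDK1 gained 2.22 and 2.52 on PDK2, and PFKP gained 1.49 and 1.24 on PFKM. LDHA gained 0.94 on LDHB in L3.6pl and 0.95 in FG. In all of these the 3 hypoxic arrays lay above the 3 normoxic arrays, which with 3 against 3 gives an exact two-sided permutation p of 0.1, the smallest possible (0.138 after adjustment over 22 comparisons). ALDOC gained 1.25 on ALDOA in L3.6pl, where L3.6pl hypoxia replicate 3 and L3.6pl normoxia replicate 1 overlapped (exact p = 0.2), and 1.03 in FG without overlap. SLC2A3 gained 1.21 on SLC2A1 in L3.6pl with overlap (exact p = 0.2) and 2.01 in FG without. PFKL over PFKM and PDK1 over PDK3 had no overlap in either line. The relatives PGM2 over PGM1, and the phosphatase PDP1 over PDHA1, on which it acts, overlapped in both. Over these 11 pairs in 2 lines, 16 of 22 comparisons had no overlap. No such share was computed over other pairs of genes. For single genes it was 24.4% of all genes in L3.6pl and 27.9% in FG. The pairs were chosen with earlier results of these data known, so the count partly repeats the members' own changes.

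**Figure D4:**
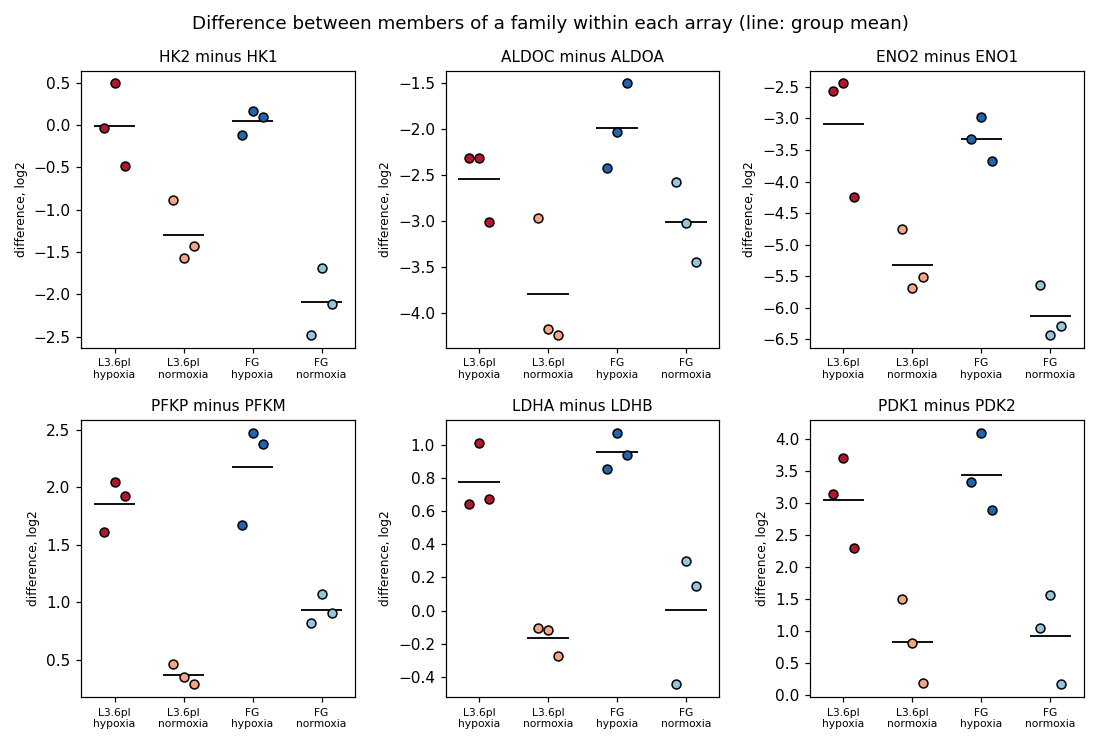
Difference of log2 intensity between 2 isoforms on the same array (vertical axis, own scale per panel) for 6 pairs, by group, with lines at the group means. Points of each line are higher in hypoxia than in normoxia for all 6 pairs, apart from an overlap in L3.6pl for ALDOC minus ALDOA.

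A wider list of 57 measured genes of sugar uptake, the same enzyme families, gluconeogenesis, the pentose phosphate path and glycogen regulation had medians close to those of all genes. In L3.6pl hypoxia 5 were called higher and 1 lower (all genes 3.89% and 2.97%), and in FG 3 higher and 6 lower (all genes 4.24% and 6.47%). The median changes over the list were -0.059 in L3.6pl and -0.090 in FG. The smallest adjusted p among the rises in both lines belonged to PPP1R3C, which brings protein phosphatase 1 to glycogen. It had 7.13, 7.35 and 7.75 in L3.6pl hypoxia, against 5.15, 5.23 and 4.77 in L3.6pl normoxia, and 7.37, 7.61 and 7.72 in FG hypoxia, against 4.05, 5.43 and 5.34 in FG normoxia. It rose 5.14-fold in L3.6pl (2.36 ± 0.32, adjusted p = 0.00202) and 6.19-fold in FG (2.63 ± 0.32, adjusted p = 0.000788). PPP1R3B, a related targeting subunit known from liver, rose by 1.74 ± 0.30 (adjusted p = 0.00742) and 1.84 ± 0.30 (adjusted p = 0.00379). PGM2L1, which makes glucose 1,6-bisphosphate, rose by 0.72 ± 0.16 in L3.6pl and 1.03 ± 0.16 in FG (adjusted p = 0.00327). PC, the pyruvate carboxylase, rose by 0.64 ± 0.13 in L3.6pl (adjusted p = 0.0163), and PGD of the pentose phosphate path was lower, at -0.48 ± 0.096 (adjusted p = 0.0142). In FG the falls with the smallest adjusted p were PHKB, a regulatory subunit of phosphorylase kinase, at -0.97 ± 0.12 (adjusted p = 0.000697), EPM2A, the glycogen phosphatase laforin, at -0.76 ± 0.11 (adjusted p = 0.00239), and PPP1R3D at -1.05 ± 0.24 (adjusted p = 0.0194).

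Between the lines, 5 members were called higher in L3.6pl than in FG and 0 lower in normoxia (all genes 5.16% higher, 5.54% lower), and 6 higher and 0 lower in hypoxia (all genes 10.0% higher, 6.72% lower). PFKL, PFKM, ALDOA, PKM and PDP1 were called in both conditions and PGM1 in hypoxia. The median of the members' differences was 0.23 in normoxia and 0.24 in hypoxia, against 0.020 and 0.016 over all genes. ALDOA was 13.72, 13.78 and 13.92 in L3.6pl hypoxia, against 13.19, 13.29 and 13.32 in FG hypoxia, and 13.34, 13.34 and 13.30 in L3.6pl normoxia, against 12.77, 12.88 and 12.73 in FG normoxia. The difference was 0.54 ± 0.085 in both conditions (adjusted p = 0.00147 in hypoxia, 0.00233 in normoxia), about as large as the hypoxia change in each line. PKM, not called for oxygen in either line, was higher in L3.6pl by 0.53 ± 0.11 in hypoxia (adjusted p = 0.00768) and 0.47 ± 0.11 in normoxia (adjusted p = 0.0203), and its arrays did not overlap between the lines. The other PKM probe set was at -0.17 in hypoxia, without being called, and at 0.66 in normoxia.

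PFKM was 9.75, 9.50 and 9.80 in L3.6pl hypoxia, against 9.27, 8.94 and 9.20 in FG hypoxia, and 10.05, 9.81 and 9.92 in L3.6pl normoxia, against 9.60, 9.25 and 9.30 in FG normoxia. Every L3.6pl array was above every FG array of the same condition, by 0.55 ± 0.13 on average in hypoxia (adjusted p = 0.0158) and 0.54 ± 0.13 in normoxia (adjusted p = 0.0243). For PFKL the difference was 0.93 ± 0.094 in hypoxia (1.91-fold, adjusted p = 9.4e-05) and 0.39 ± 0.094 in normoxia (adjusted p = 0.0224). PDP1 had the widest gap of the called members. It stood at 9.74, 10.50 and 11.00 in L3.6pl hypoxia, against 8.69, 8.64 and 8.66 in FG hypoxia, and at 10.93, 10.74 and 10.86 in L3.6pl normoxia, against 10.37, 9.39 and 9.28 in FG normoxia. That is 3.37-fold in hypoxia (1.75 ± 0.32, adjusted p = 0.00337) and 2.24-fold in normoxia (1.16 ± 0.32, adjusted p = 0.0399; 1.51 without FG normoxia replicate 1, adjusted p = 0.00629).

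The normoxia calls between lines were close to the threshold. PFKL was lost without FG normoxia replicate 3 or L3.6pl normoxia replicate 1 or 3 (adjusted p = 0.0761 to 0.0807), PFKM without FG normoxia replicate 2 or 3 or L3.6pl normoxia replicate 1 or 3 (0.0716 to 0.0974), PKM without FG normoxia replicate 3 or any L3.6pl normoxia array (0.0554 to 0.0733), and PDP1 without any of 9 arrays, all but FG normoxia replicate 1 and L3.6pl hypoxia replicates 1 and 3 (0.0552 to 0.143). In hypoxia PFKM was lost without FG hypoxia replicate 2 or L3.6pl hypoxia replicate 1 (0.0513 and 0.0692), while ENO2 was called without L3.6pl hypoxia replicate 3 (0.94, adjusted p = 0.0112) and PGAM1 without FG normoxia replicate 1 (0.35, adjusted p = 0.0335). Without the 3 arrays that stand apart PFKL and PKM lost their normoxia calls (adjusted p = 0.0864 and 0.0704), PGAM1 and ENO2 were called in both hypoxia (0.0231 and 0.0031) and normoxia (0.0267 and 0.0326), and GYS1 was called in hypoxia (0.0321). Other normoxia differences passed when 1 array was left out: ENO2 without L3.6pl hypoxia replicate 3 (adjusted p = 0.00837), HK2 without L3.6pl hypoxia replicate 2 or 3 (0.0421 and 0.0422), LDHB without L3.6pl hypoxia replicate 2 (0.0432) and PDHA1 without FG normoxia replicate 3 (0.0474).

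Arrays with the same replicate number deviated together across the lines, and with that pairing as a block 8 members were called in normoxia, or 11 with a block for each number within an oxygen condition. The members gained with either block were SLC2A1 (difference 0.40 ± 0.12, blocked adjusted p = 0.028 and 0.0142), HK2 (0.85 ± 0.28, 0.0466 and 0.0291), PGAM1 (0.66 ± 0.22, 0.0438 and 0.0108) and LDHB (0.38 ± 0.12, 0.0496 and 0.0145). PDP1 lost its call with the first block (blocked adjusted p = 0.0521). The second block also gained ENO2 (0.91 ± 0.36, blocked adjusted p = 0.0349) and PDHA1 (0.54 ± 0.19, 0.00594). In hypoxia 7 and 10 were called with these blocks, with HK1 gained under both (0.29 ± 0.098, 0.0407 and 0.036), and PDK3 (0.00184), GYS1 (0.0337) and PYGL (0.0403) under the second. All of these members were higher in L3.6pl.

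**Figure D5:**
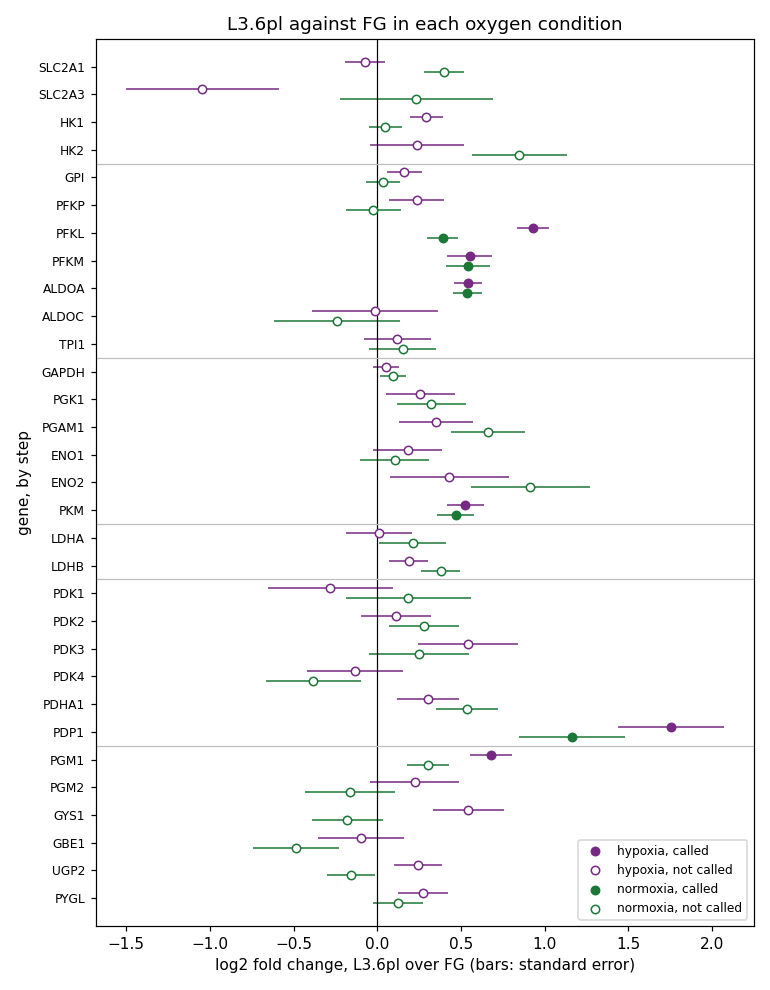
Log2 fold change of each of the 31 members in L3.6pl over FG (horizontal axis; bars are standard errors of the limma fit) in hypoxia (purple) and normoxia (green), with filled points where the adjusted p was below 0.05. The filled points of PFKL, PFKM, ALDOA, PKM, PDP1 and PGM1 lie to the right of 0.

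Among the other 57 genes, 8 were called higher in L3.6pl and 3 lower in hypoxia (all genes 10.0% and 6.72%). In normoxia 4 were called higher and 3 lower (all genes 5.16% and 5.54%). SLC2A10, a glucose transporter of the GLUT family, had 6.76, 7.10 and 7.69 in L3.6pl hypoxia, against 3.78, 4.68 and 5.05 in FG hypoxia, and 8.28, 7.53 and 7.38 in L3.6pl normoxia, against 5.20, 4.78 and 4.61 in FG normoxia. The arrays of the lines lay far apart, with a difference of 2.68 ± 0.35 in hypoxia (adjusted p = 0.0005) and 2.87 ± 0.35 in normoxia (adjusted p = 0.000472). PHKB (0.80 ± 0.12) and PC (0.85 ± 0.13) were higher in L3.6pl in hypoxia, and PGM2L1 (0.78 ± 0.16) and PHKG2, a catalytic subunit of phosphorylase kinase (0.79 ± 0.19), in normoxia. GALM, which turns glucose between its anomers, was lower in L3.6pl, at -1.22 ± 0.16 in hypoxia and -1.21 ± 0.16 in normoxia. DLD, a subunit of pyruvate dehydrogenase and its sister complexes, was at -0.78 ± 0.17 and PGD at -0.38 ± 0.096 in hypoxia, and EPM2A (-0.63 ± 0.11) and GYG2, a glycogenin that primes glycogen (-0.68 ± 0.15), were lower in L3.6pl in normoxia.

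Whether the lines responded to hypoxia by different amounts was tested as the hypoxia change in L3.6pl minus that in FG. In that test 0 of 31 members were called, and 0.0253% of all genes (5 genes, 0.0152% higher in L3.6pl and 0.0101% lower). At an unadjusted p below 0.05 there were 3 members (9.68%), beside 7.22% of all genes. They were PFKL, whose change was larger in L3.6pl by 0.54 ± 0.13 (adjusted p = 0.268), GYS1, larger in L3.6pl by 0.72 ± 0.30 (adjusted p = 0.633), and SLC2A1, smaller in L3.6pl by the signed difference -0.47 ± 0.17 (adjusted p = 0.517). With array quality weights in the fit PFKL was called (0.66, adjusted p = 0.0203). All 6 glycogen genes had the larger change in L3.6pl, by 0.15 to 0.72, while 3 of the 4 uptake and trapping genes had it in FG, and none of these differences was called. For UGP2 this held for the chosen probe set only, and the other UGP2 probe set was at -0.48. SLC2A3 was at -1.28 ± 0.65 (adjusted p = 0.746) and HK2 at -0.61, but without the 3 arrays that stand apart they were at -0.14 and 0.0075, and GYS1 was at 1.06, none of them called. The lines' changes have no array in common. Yet arrays with the same replicate number deviated together across the lines, so the changes may share error. Across the 31 members the changes had a Pearson's r of 0.936, beside 0.705 across all genes. This is a description, since genes are not independent replicates, and the part of shared error in r was not tested. Of the members, 22 were positive and 4 negative in both lines. A difference in calls between L3.6pl and FG, as for GYS1, PFKL, PGK1 or LDHA, was thus not matched by a called difference in response.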

How the data were processed

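The authors deposited linear normalized intensities, for which the submitters' processing notes name RMA; its version and the step back from log2 to linear values are not given in the sources used here. Median intensities of the 12 arrays lay between 39.1 and 41.4, so no further normalization was applied and log2 was taken here. Of 54675 probe sets, 41091 outside the 62 controls had exactly 1 gene in the platform annotation, and the brightest of each gene over the 12 arrays stands for it. Symbols were updated by gene number with a RefSeq table of assembly GRCh38.p14, and promoters came from RefSeq of that build.

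All 12 arrays entered 1 fit with a mean per group (limma 3.58.1, R 4.3.3, lmFit and eBayes, 8 residual and 2.72 prior degrees of freedom), with no filter on dim genes. The steps were tested on simulated data. Benjamini-Hochberg adjustment ran over 19775 genes in each of 5 comparisons, and genes were called below 0.05. An exact test of 3 against 3 cannot give a two-sided p under 0.1, and the number of arrays limits the precision.

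All 31 measured members are named, and per-array values are given for those with the smallest adjusted p of a step, those called between the lines in both conditions, and others the text turns on. Of the wider list, up to 3 per direction and comparison are named. The members, lists and tests were chosen with earlier results of these data known.

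Deviations from group means were compared for arrays with the same replicate number. Across the lines they correlated in every pair (r of 0.529 to 0.735 in normoxia, 0.358 to 0.462 in hypoxia), so the numbers pair arrays between lines. Hypoxic and normoxic arrays of 1 line did not pair by number (r of -0.22 to 0.26 in FG, -0.04 to 0.41 in L3.6pl). Alternatives were other scalings, probe set choices, moderation, weights, blocks, thresholds and arrays left out. The blocks by oxygen and number and the single probe sets were chosen after seeing the data.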

Additional observations from a re-analysis of the deposited data

How the results depend on the processing

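Each array was left out in turn. Members called in hypoxia then numbered 12 to 19 in L3.6pl and 8 to 17 in FG, members called between the lines 5 to 7 in hypoxia and 1 to 7 in normoxia, and members called for a difference in response 0. Of all genes, 508 to 2436 were called in L3.6pl and 1029 to 2899 in FG, 2142 to 3813 between the lines in hypoxia and 1254 to 2626 in normoxia, and 2 to 23 for the difference in response. In FG, 9 members were called when only the groups compared were fitted and 8 at an adjusted p below 0.01. Array weights called 21 in L3.6pl and 19 in FG, 2 of them lower in each line. Between the lines in normoxia 12 were called with array weights, 1 at 0.01, 8 with the replicate block and 11 with the replicate block by oxygen and number, which gave 10 in hypoxia. Array weights called 1 member for the difference in response. Over all genes, array weights called 5729 in FG, 5192 in L3.6pl, 6623 between lines in normoxia and 421 for the difference in response. The threshold of 0.01 called 860 in FG, 475 in L3.6pl, 1718 between the lines in hypoxia, 1025 in normoxia and 2 for the difference in response. Without the 3 arrays that stand apart, 20 members were called in L3.6pl and 15 in FG (2 of them lower in each line), 9 between the lines in hypoxia and 5 in normoxia, and of all genes 3871 were called in FG, 4179 in L3.6pl and 19 for the difference in response. Only the groups compared gave 797 in L3.6pl, and this could not be run for the difference in response. The replicate block by oxygen and number gave 4576 in normoxia, 5935 in hypoxia and 703 for the difference in response, which mean probe sets, cyclic loess and trend with robust moderation put at 13, 12 and 10. With the replicate block by number within a line, 13 members were called in FG, where ALDOC (adjusted p = 0.0545) and PGM1 (0.084) were lost and PGM2 gained (0.00522), and 16 in L3.6pl; these samples share only a number. Single probe sets gave HK2 at -0.638 in FG and -0.748 in L3.6pl, PKM at 1.62 in FG and UGP2 at 1.49 in FG, and the mean of all probe sets gave UGP2 at 0.710 in FG (adjusted p = 0.0203) and HK2 at 0.11 in L3.6pl (adjusted p = 0.525). The cause was not tested.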
